A study of Mus musculus with 3 samples.

Results

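Cardiac fibroblast nuclei were taken from the chromatin accessibility (ATAC) data of mouse hearts by the fragments they carried over 15 fibroblast marker genes, and they numbered 163 under sunitinib and 176 under vehicle. These 339 nuclei came from 6554 called barcodes of both libraries, 3858 under sunitinib and 2696 under vehicle. A barcode was called with at least 1000 fragments on chromosomes 1 to 19 and X and at least 4 times as many fragment ends per base within 50 bp of transcription start sites as at 1900 to 2000 bp from them. A called barcode was a member with at least 4 fragments over the bodies and 2 kb upstream of Pdgfra, Col1a1, Col1a2, Dcn, Gsn, Tcf21, Lum, Dpt, Col3a1, Has2, Thbs1, Vgll3, Scara5, Abca8a and Loxl1. These fragments also had to make up at least 3 times the share they had of all vehicle fragments, 0.0395%, which set the limit at 0.118% of a barcode's own fragments. The marker values below therefore chose the members and are given as a description, with no test.

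Both libraries came from snap-frozen hearts of wild-type (WT) mice and carry 3 months in their titles, whose meaning is not given in the sources used here. One group had received sunitinib, a cancer drug that blocks several receptor tyrosine kinases, and the other its vehicle, with 1 single-nucleus multiome library (RNA and ATAC from the same nuclei) per group. Dose, duration, sex and the number of hearts per library are not given in the sources used here, and only ATAC fragments were analysed. A library of sunitinib plus Yoda1, an activator of the mechanosensitive channel PIEZO1, held 12 called barcodes and 0 members, and is not compared. With 1 library per group there was no replicate and no test between groups. Intervals are 95% and cover counting error only, and the spread between hearts is unknown.

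Cardiac fibroblasts are the main producers of the heart's fibrillar collagen matrix. Resident fibroblasts derive largely from the embryonic epicardium, carry the platelet-derived growth factor receptor PDGFRA, one of the receptors that sunitinib inhibits, and depend on the transcription factor TCF21 during their development. After injury they respond to TGF-beta and to mechanical load, and activated cells make more collagen, periostin and contractile actin. Accessible chromatin marks promoters and enhancers that factors can reach, and it is not a measure of RNA.

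Members held 682029 fragments under sunitinib and 623122 under vehicle, with a median of 3793 per sunitinib nucleus and 3193.5 per vehicle nucleus. No member barcode was shared by the 2 libraries, although 22 called barcodes were. Enrichment at start sites had a median of 24.1 under sunitinib and 25.7 under vehicle. Members were thus of similar enrichment at start sites but deeper under sunitinib. At least 3000 fragments were held by 110 of 163 sunitinib members and 99 of 176 vehicle members. The 15 markers held 1251 member fragments under sunitinib and 1162 under vehicle. This was 0.183% of all member fragments under sunitinib and 0.186% under vehicle, against 0.0288% in other sunitinib barcodes and 0.0322% in other vehicle barcodes. A median member had 7 marker fragments over 5 of the 15 genes under sunitinib and 6 fragments over 4.5 genes under vehicle. Membership thus rested on few fragments per nucleus, although 1 member in each library met the rule on a single gene. Exactly 4 marker fragments were carried by 40 members under sunitinib and 37 under vehicle, and at least 10 by 41 members under sunitinib and 19 under vehicle. Just outside the rule, 23 barcodes under sunitinib and 60 under vehicle had 3 marker fragments at a sufficient share. A further 189 barcodes under sunitinib and 119 under vehicle had enough fragments but too low a share.

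Promoters from 250 bases before to 50 bases after the start were available from RefSeq (GRCm38.p6, the same assembly as mm10) for 8 of the 15 markers. Those of 4 markers are printed as examples, namely Dpt, Tcf21 and Vgll3, which stood far above other barcodes, and Gsn, which stood less far above them. They are not a ranking, since Abca8a, at 8.95 times under sunitinib and 8.13 times under vehicle, is not printed. The promoter of Irs2, the gene with the lowest ratio described below, is printed with them. Capitals mark 3 short motifs on either strand: TGANTCA of the AP-1 factors, CAGCTG of a class of basic helix-loop-helix factors to which TCF21 belongs, and GGAATG, or CATTCC on the other strand, of the TEAD factors. All are written 5′ to 3′ in the direction of the gene.
Dpt, chr1:164796413-164796712, plus strand: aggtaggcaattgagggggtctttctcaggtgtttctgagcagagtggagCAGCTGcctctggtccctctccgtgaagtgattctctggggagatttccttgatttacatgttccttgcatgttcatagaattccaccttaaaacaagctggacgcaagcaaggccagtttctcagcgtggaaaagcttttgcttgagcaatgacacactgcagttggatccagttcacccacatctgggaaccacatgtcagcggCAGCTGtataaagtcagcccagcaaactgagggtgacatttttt
Tcf21, chr10:22820094-22820393, minus strand: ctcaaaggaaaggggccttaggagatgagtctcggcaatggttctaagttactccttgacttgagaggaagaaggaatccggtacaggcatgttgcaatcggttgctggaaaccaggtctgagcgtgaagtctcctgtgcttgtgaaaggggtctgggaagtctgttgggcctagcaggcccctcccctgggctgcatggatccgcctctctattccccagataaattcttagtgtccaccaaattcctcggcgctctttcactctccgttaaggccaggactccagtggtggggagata
Vgll3, chr16:65814939-65815238, plus strand: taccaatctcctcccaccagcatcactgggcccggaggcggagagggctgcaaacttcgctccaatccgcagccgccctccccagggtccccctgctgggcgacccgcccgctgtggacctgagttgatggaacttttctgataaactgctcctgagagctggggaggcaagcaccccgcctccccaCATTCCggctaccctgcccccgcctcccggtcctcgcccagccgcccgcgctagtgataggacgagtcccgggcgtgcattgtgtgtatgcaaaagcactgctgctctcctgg
Gsn, chr2:35256109-35256408, plus strand: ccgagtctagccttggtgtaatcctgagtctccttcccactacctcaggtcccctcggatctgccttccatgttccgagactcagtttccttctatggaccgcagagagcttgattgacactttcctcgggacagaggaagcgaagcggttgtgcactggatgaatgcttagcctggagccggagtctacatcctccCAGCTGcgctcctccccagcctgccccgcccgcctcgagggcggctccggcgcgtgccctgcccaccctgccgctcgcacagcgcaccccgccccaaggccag
Irs2, chr8:11008880-11009179, minus strand: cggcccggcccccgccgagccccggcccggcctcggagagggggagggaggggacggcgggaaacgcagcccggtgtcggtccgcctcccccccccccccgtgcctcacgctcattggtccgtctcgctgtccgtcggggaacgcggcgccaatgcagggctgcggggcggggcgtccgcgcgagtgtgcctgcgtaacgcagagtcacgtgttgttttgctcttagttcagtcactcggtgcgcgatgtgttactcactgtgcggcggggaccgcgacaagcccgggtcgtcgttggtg
CAGCTG stood in the Dpt promoter at 2 places and in the Gsn promoter at 1, and CATTCC at 1 place in that of Vgll3. The Tcf21 and Irs2 promoters held none of the 3 motifs. Of all 16433 RefSeq promoters of this length, 15.2% held CAGCTG, 13.1% held GGAATG and 6.99% held TGANTCA, so a match describes the letters and is no evidence of binding. Over the printed Dpt stretch, members had 10 fragments under sunitinib and 4 under vehicle, while the far more numerous other barcodes had 4 under sunitinib and 7 under vehicle. The Tcf21 stretch carried 8 member fragments under sunitinib and 11 under vehicle, against 15 in other sunitinib barcodes and 18 in other vehicle barcodes. That of Vgll3 carried 11 member fragments under sunitinib and 10 under vehicle, against 14 in other sunitinib barcodes and 20 in other vehicle barcodes. The Gsn stretch was open in other cells too. It had 12 fragments in members of each library, 140 in other sunitinib barcodes and 61 in other vehicle barcodes.

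Each of the 15 markers was more accessible in members than in other called barcodes of the same library, which the rule fixes for their sum. Levels are fragments over the gene body and 2 kb upstream, scaled to a total of 1000000 fragments of the same barcodes (CPM). They are not divided by length, so they are compared between groups and not between genes. Has2, the synthase of the matrix glycan hyaluronan, had 101 CPM in sunitinib members and 104 CPM in vehicle members, 12.9 times the level in other barcodes under sunitinib and 10.4 times under vehicle. Dcn, the collagen-binding proteoglycan decorin, had 111 CPM under sunitinib and 122 CPM under vehicle, 10.2 times other barcodes under sunitinib and 8.91 times under vehicle. Tcf21 had 33.7 CPM under sunitinib and 35.3 CPM under vehicle, from only 23 fragments under sunitinib and 22 under vehicle. Its level was 11.8 times that of other barcodes under sunitinib (2.87 CPM) and 5.59 times under vehicle (6.32 CPM). A fold over other barcodes thus also depends on their level, which differed between the libraries. Gsn, which encodes the actin-severing protein gelsolin, was the least selective marker under sunitinib at 2.79 times, and Col1a1, of type I collagen, under vehicle at 2.83 times. Scara5, a scavenger receptor gene, was hit in 60.1% of sunitinib members and 54.5% of vehicle members, against 7.01% of other sunitinib barcodes and 8.97% of other vehicle barcodes. Pdgfra was hit in 43.6% of sunitinib members and 39.2% of vehicle members, against 10.8% of other sunitinib barcodes and 11.3% of other vehicle barcodes. No single marker was therefore seen in every member, and other barcodes were not free of any marker.

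**Figure D1:**
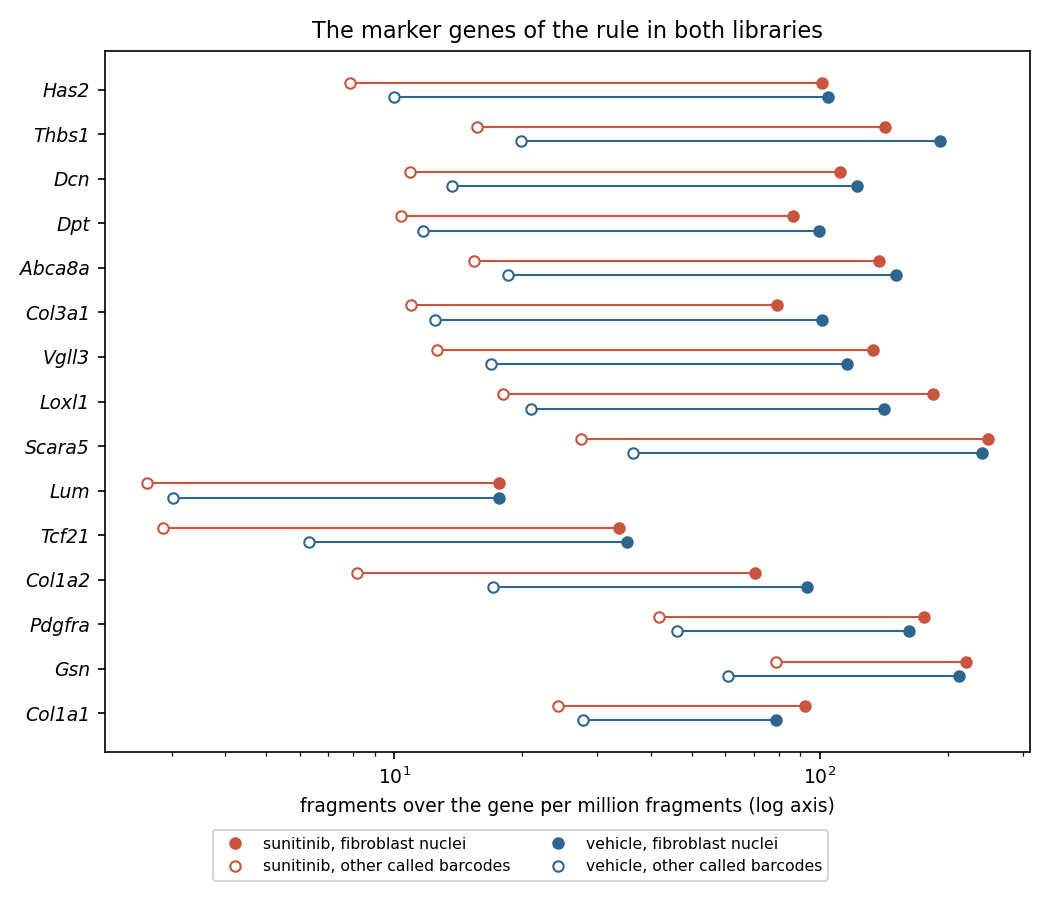
Fragments over each of the 15 marker genes, scaled to a total of 1000000 fragments (log axis), in fibroblast nuclei (filled) and in other called barcodes (open), sunitinib above vehicle for each gene. Filled points lie to the right of open points for all 15 genes in both libraries, from 2.79 times (Gsn, sunitinib) to 12.9 times (Has2, sunitinib).

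Between the libraries the markers differed little. Ratios are log2 of sunitinib over vehicle, from counts scaled to all member fragments with 0.5 added to each. Pdgfra had 120 fragments under sunitinib and 101 under vehicle (0.12, -0.28 to 0.51). Dpt, the matrix protein dermatopontin, had 59 under sunitinib and 62 under vehicle (-0.20, -0.74 to 0.34). Col3a1, of type III collagen, had 54 under sunitinib and 63 under vehicle (-0.35, -0.90 to 0.19). The intervals of these 3 genes all held 0. Loxl1, an enzyme that crosslinks elastin, had the highest ratio of the 15, with 126 fragments under sunitinib and 88 under vehicle (0.39, -0.02 to 0.80). Thbs1, the TGF-beta-activating matrix protein thrombospondin-1, had the lowest, with 97 under sunitinib and 119 under vehicle (-0.42, -0.83 to -0.03). Only the interval of Thbs1 left out 0. Since each barcode was picked for its total over these genes, the ratios show how that total was divided and not its size.

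A list of 20 further fibroblast genes, none of them used by the rule, was read to check the label. The list was chosen with earlier results of these data known. Members with at least 5 marker fragments had 2163 CPM over this list under sunitinib (2045 to 2286) and 1895 CPM under vehicle (1780 to 2015). Members with exactly 4 had 1433 CPM under sunitinib (1207 to 1689) and 1818 CPM under vehicle (1544 to 2126). Barcodes just outside, with 3 marker fragments, had 1435 CPM under sunitinib (1081 to 1867) and 1659 CPM under vehicle (1422 to 1923). All other barcodes, the just-outside ones included, had 585 CPM under sunitinib and 683 CPM under vehicle. Members thus also stood above other barcodes on genes the rule did not use. No step was seen at the threshold, where the intervals just outside it overlapped those of members with 4. Intervals this wide cannot show that a step is absent. Dpep1, a membrane dipeptidase gene of the list, stood at 7.23 times the level of other barcodes under sunitinib and 3.93 times under vehicle. Ddr2, a collagen receptor gene, stood at 4.53 times under sunitinib and 3.43 times under vehicle. Pi16, a gene of adventitial fibroblasts, stood at only 1.28 times under sunitinib and 1.67 times under vehicle.

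**Figure D2:**
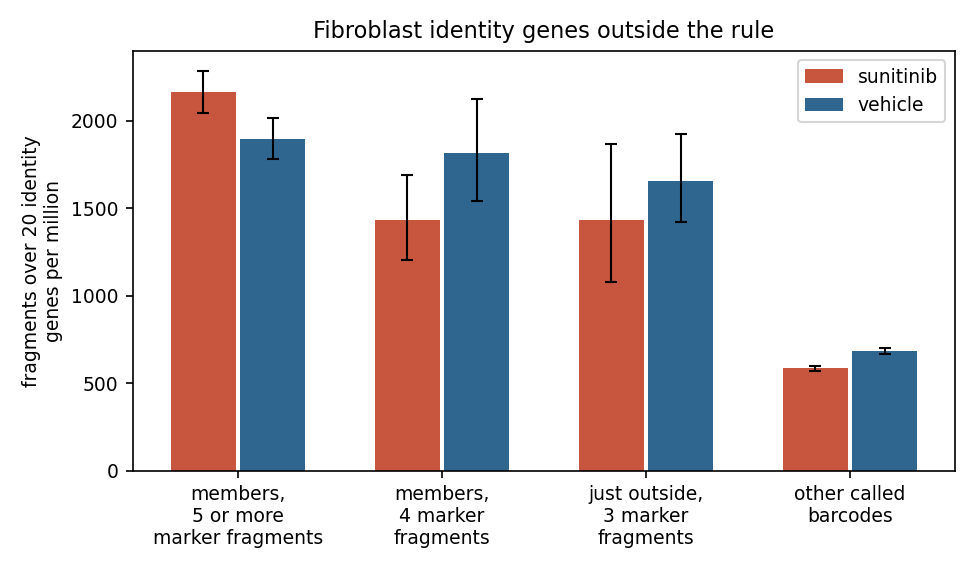
Fragments over 20 fibroblast identity genes outside the rule, scaled to a total of 1000000 fragments, for barcodes grouped by their marker fragments, sunitinib left of vehicle; bars start at 0 and error bars are 95% Poisson intervals (counting error only). Every set near or inside the rule lies at 1433 or more, and other barcodes lie at 585 (sunitinib) and 683 (vehicle).

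Among 2148 measured genes outside the markers, which required at least 100 member fragments over both libraries and 30 expected in each, 136 lay at 2 times or more above other barcodes in both libraries. They were 62.1% of the 219 such genes under sunitinib and 87.2% of the 156 under vehicle. These counts also depend on the other barcodes, whose make-up differed between the libraries, as given below for T lymphoid markers. The leading gene under vehicle was Aldh1a1, of a retinaldehyde dehydrogenase, at 4.65 times under sunitinib and 5.19 times under vehicle. Col5a3, of a chain of type V collagen, followed at 2.98 times under sunitinib and 4.41 times under vehicle. Egfr, the epidermal growth factor receptor gene, stood at 5.51 times under sunitinib and 3.93 times under vehicle. Gxylt2, of a xylosyltransferase, stood at 5.36 times under sunitinib and 4.01 times under vehicle. The next were Bicc1, C1qtnf7, Gfpt2, Itgb8, Matn2, Bmper and Smoc2, between 3.47 and 5.39 times under sunitinib and between 3.55 and 3.78 times under vehicle. All 12 leading genes stood at 2 times or more under sunitinib too, so members of both libraries shared them.

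Markers of other cell classes were read in members too. Vascular endothelial markers had 622 CPM in sunitinib members and 664 CPM in vehicle members, against 1204 CPM in other sunitinib barcodes and 1305 CPM in other vehicle barcodes. Of the 12 markers, 11 were lower in members than in others under sunitinib and 12 under vehicle. Mural cell markers (pericytes and smooth muscle) were higher in members of both libraries, at 446 CPM in sunitinib members and 451 CPM in vehicle members, against 312 CPM in other sunitinib barcodes and 340 CPM in other vehicle barcodes. The sum of B lymphoid markers was also higher, at 535 CPM in sunitinib members and 497 CPM in vehicle members. Other barcodes had 413 CPM under sunitinib and 474 CPM under vehicle. Yet 7 of the 10 B lymphoid markers were lower in members than in others in each library. Most of the list's member fragments lay over Ebf1, which also belongs to the lipid and adipogenic list below. Schwann cell markers stood at 126 CPM in sunitinib members and 120 CPM in vehicle members, against 106 CPM in other sunitinib barcodes and 114 CPM in other vehicle barcodes. Of the 10 Schwann cell markers, 4 were lower in members than in others under sunitinib and 7 under vehicle. Endocardial markers were close to other barcodes, at 974 CPM in sunitinib members and 1001 CPM in vehicle members, against 896 CPM in other sunitinib barcodes and 1041 CPM in other vehicle barcodes. The mural list holds Pdgfrb, and 9 sunitinib and 13 vehicle members also met the rule for it. Cardiomyocyte markers had 382 fragments in sunitinib members and 252 in vehicle members (0.47, 0.24 to 0.71). Their level was 560 CPM in sunitinib members and 404 CPM in vehicle members, against 824 CPM in other sunitinib barcodes and 906 CPM in other vehicle barcodes. T lymphoid markers had 210 fragments in sunitinib members and 96 in vehicle members (0.99, 0.64 to 1.36). Their level was 308 CPM in sunitinib members and 154 CPM in vehicle members, against 656 CPM in other sunitinib barcodes and 303 CPM in other vehicle barcodes, and all 12 were lower in members than in others in both libraries. Cardiomyocyte and T lymphoid markers were thus higher in sunitinib members but below the level of other barcodes. The rule for T lymphoid markers was met by 704 of all called barcodes under sunitinib and 106 under vehicle, and by 9 members under sunitinib and 1 under vehicle. The rule of some other class was met by 32 sunitinib and 29 vehicle members, and doublets were not removed.

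Members made up 4.22% of called barcodes under sunitinib (3.61 to 4.91, exact Clopper-Pearson) and 6.53% under vehicle (5.62 to 7.53). The intervals do not overlap, but they leave out the spread between hearts and preparations. Without barcodes that met the T or B lymphoid rule, the shares were 4.89% under sunitinib (4.16 to 5.71) and 6.65% under vehicle (5.71 to 7.70), whose intervals meet at 5.71. With barcodes thinned to 1000 fragments, 21 members were left in each library, or 0.544% under sunitinib (0.337 to 0.831) and 0.779% under vehicle (0.483 to 1.19), with overlapping intervals. Among barcodes with at least 3000 fragments the shares were 7.89% under sunitinib (110 of 1395) and 12.3% under vehicle (99 of 807). The share was lower under sunitinib in all of these settings, while its size followed depth. Whether the number of fibroblasts, their recovery as nuclei or the number of other cells differed between the hearts cannot be told apart.

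Over the 2148 measured genes the ratios centred near 0, with a median log2 ratio of 0.02 and the middle 95% between -0.50 and 0.55. A ratio of at least 1.5 was reached by 48 genes, or 2.23% of those measured, and the reverse ratio by 26, or 1.21%. With ratios centred on the median gene the counts were 37 higher and 33 lower, so the split depended on the scaling. A median gene had 146 fragments over both libraries, so the interval of a single gene is wide. The genes described next come from the 12 highest and 12 lowest of these with an interval that left out 0 and the same direction within 1 kb of the start sites.

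**Figure D3:**
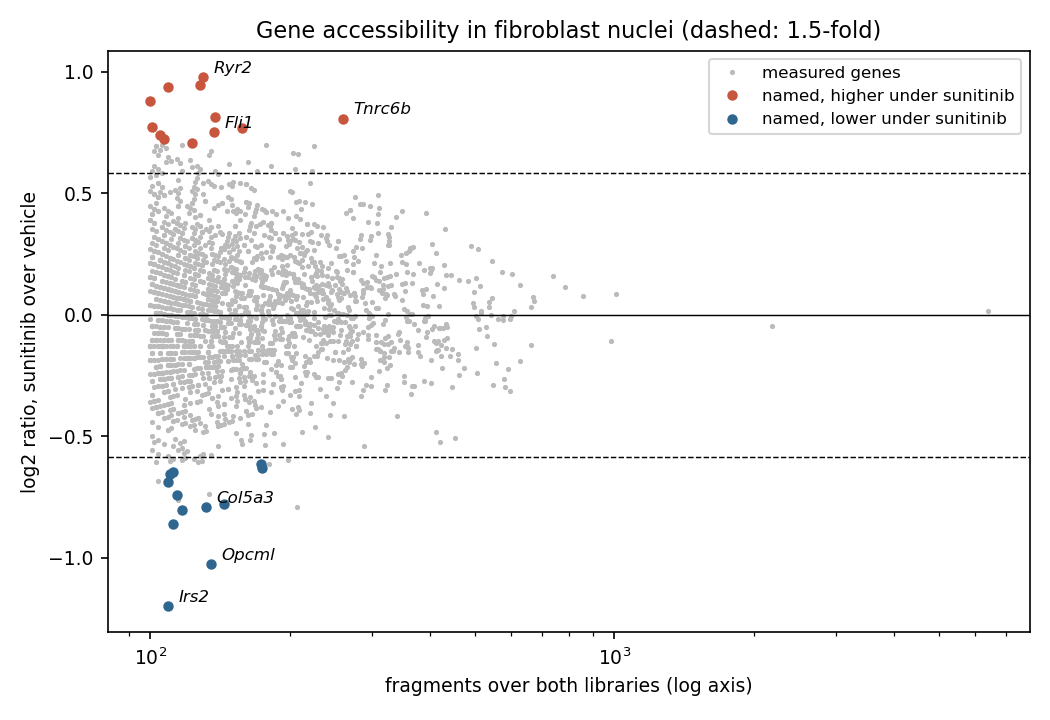
Log2 ratio of sunitinib over vehicle in fibroblast nuclei against the fragments of both libraries (log axis) for 2148 measured genes, with the named genes in colour. Ratios narrow towards 0 as fragments grow, and past 1.5-fold (dashed) lie 48 genes above and 26 below, Irs2 lowest at -1.20.

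Irs2, which encodes an adaptor that carries insulin and insulin-like growth factor signals, had the lowest ratio of the 2148 genes and is described for that reason. It had 35 fragments in 30 sunitinib nuclei and 74 fragments in 58 vehicle nuclei. Its level was 51.3 CPM under sunitinib and 118.8 CPM under vehicle (-1.20, -1.83 to -0.61). Within 1 kb of its starts the ratio was -1.16, and under 10 alternative settings that could move it, it lay between -1.79 and -1.07. Sunitinib members stood at 0.93 times the level of other sunitinib barcodes, and vehicle members at 2.31 times that of other vehicle barcodes. Outside the members the gene did not stand apart in this way. Other called barcodes had 681 fragments under sunitinib and 393 under vehicle (0.11, -0.07 to 0.29). Barcodes with vascular endothelial markers had 28 under sunitinib and 18 under vehicle (-0.06, -0.95 to 0.90), and those with cardiomyocyte markers gave a ratio of -0.32 (-0.81 to 0.17). Barcodes with under 500 fragments, none of them called, gave 0.41 (0.23 to 0.59). The members' interval did not overlap that of all other called barcodes but did overlap those of the endothelial and cardiomyocyte sets, and the difference between cell sets was not tested.

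The difference at Irs2 was strongest in the kilobase that begins 0.5 kb upstream of the gene's GENCODE start (chr8:11008959-11009958 in mm10). The printed promoter, set on a RefSeq start further upstream, partly covers it. This kilobase was picked after the profile had been seen. It held 8 fragments in 8 sunitinib nuclei and 28 fragments in 23 vehicle nuclei, or 11.7 CPM under sunitinib and 44.9 CPM under vehicle (-1.88, -3.28 to -0.77). With fragments of a nucleus that share an end counted once, 8 were left under sunitinib and 26 under vehicle. Other called barcodes had 193 fragments there under sunitinib and 115 under vehicle, or 15.8 CPM under sunitinib and 15.1 CPM under vehicle (0.06, -0.28 to 0.41). The sunitinib members were close to that level and the vehicle members above it. Barcodes with vascular endothelial markers had 5 fragments in each library (-0.68, -2.80 to 1.44). Those with cardiomyocyte markers had 12 under sunitinib and 15 under vehicle (-0.61, -1.85 to 0.58). Barcodes with under 500 fragments gave 0.64 (0.29 to 1.00). The members' interval overlapped those of the endothelial and cardiomyocyte sets, and the difference between cell sets was not tested. Over the 300 printed bases, members had 6 fragments under sunitinib and 12 under vehicle, and other barcodes 144 under sunitinib and 75 under vehicle.

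**Figure D4:**
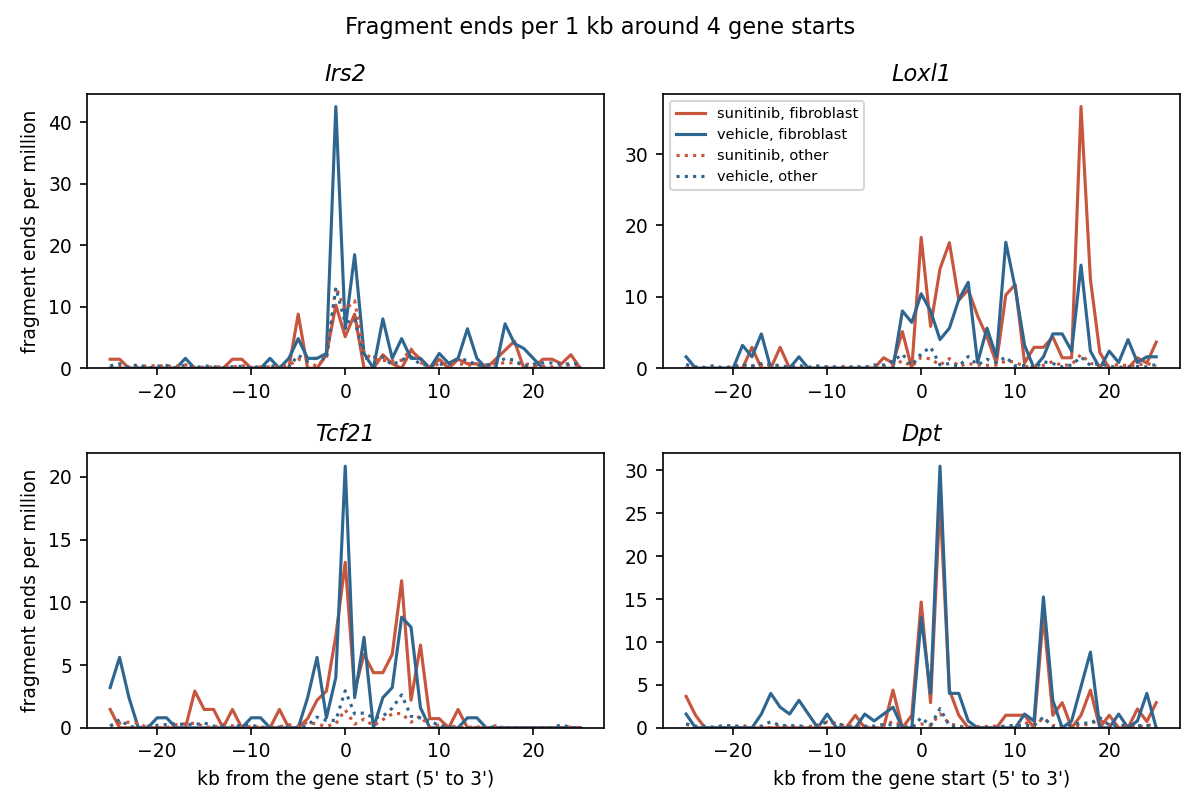
Fragment ends, scaled to a total of 1000000 ends, in bins of 1 kb against the distance from the gene start, for fibroblast nuclei (solid) and other called barcodes (dotted) around Irs2, Loxl1, Tcf21 and Dpt. At Irs2 the sunitinib line stays near the dotted ones while the vehicle line peaks just upstream of the start, and at Loxl1 the sunitinib line is highest about 17.4 kb inside the gene.

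The other low genes had mixed roles. Opcml, of a neural cell adhesion protein, had 47 fragments under sunitinib and 88 under vehicle (-1.03, -1.58 to -0.51). Pdxdc1, whose window overlaps Ntan1 and Mpv17l, had 42 under sunitinib and 70 under vehicle (-0.86), but 0.037 with fragments shorter than a nucleosome's DNA. Pappa2, a protease that cleaves binding proteins of insulin-like growth factors, had 45 fragments in 38 sunitinib nuclei and 72 in 41 vehicle nuclei (-0.80, -1.38 to -0.25). Without the 5% of members with most fragments its ratio was -0.24, so few nuclei carried the difference. Col5a3 had 51 fragments in 42 sunitinib nuclei and 81 in 59 vehicle nuclei (-0.79, -1.33 to -0.27), and a ratio of -0.13 within 1 kb of its starts. Its window overlaps Rdh8. Skil, which encodes the SMAD repressor SnoN, had 46 under sunitinib and 66 under vehicle (-0.65, -1.23 to -0.09). Further ratios were -0.74 for Slc24a2, -0.69 for Aebp2, a partner of Polycomb repressive complex 2, -0.66 for Arhgap17, -0.63 for Tenm2 and -0.62 for Zfp462. In other called barcodes 7 of the 12 low genes were also lower, with intervals that left out 0, among them Opcml at -0.16 (-0.27 to -0.04) and Pappa2 at -0.30 (-0.48 to -0.12). Of the low genes named here, Irs2 and Opcml stayed past 1.5-fold in every alternative setting.

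The highest gene, Ryr2, encodes the calcium release channel of heart muscle and belongs to the cardiomyocyte markers. It had 89 fragments in 46 sunitinib nuclei and 41 in 28 vehicle nuclei (0.98, 0.44 to 1.56), at 0.61 times other barcodes under sunitinib and 0.30 times under vehicle. Without members that met another class's rule its ratio was 0.50. Fli1, an ETS factor of endothelial and blood cells, had 89 under sunitinib and 48 under vehicle (0.75, 0.24 to 1.30), and 0.07 within 1 kb of its starts. Like Ryr2 it lay below other barcodes in both libraries, at 0.56 times under sunitinib and 0.36 times under vehicle. Tg, whose window overlaps the lymphoid adaptor gene Sla, had 69 under sunitinib and 38 under vehicle (0.72), and its ratio in other barcodes was 0.76. Cardiomyocyte and T lymphoid markers were also higher in sunitinib members, as given above, and their part in these 3 genes was not tested. Of the 12 highest genes, only Ryr2 belonged to a marker list of another class. Tnrc6b, of the microRNA silencing complex, had 171 fragments in 100 sunitinib nuclei and 89 in 65 vehicle nuclei (0.81, 0.43 to 1.20), and 0.20 within 1 kb of its starts. Tasp1, a protease gene, stood at 0.95, Zbtb1, a zinc finger gene whose window overlaps Zbtb25, at 0.94, and Cdk13, a kinase of transcription elongation, at 0.77. Cnot4, a ubiquitin ligase of the deadenylase complex, stood at 0.71, Fam78b at 0.88, Fam214a at 0.82, BC034090 at 0.78 and Btbd11 at 0.74. In other called barcodes 6 of the 12 were also higher, with intervals that left out 0, among them Tasp1 at 0.56 (0.41 to 0.71) and Tnrc6b at 0.33 (0.24 to 0.43). Zbtb1 stood at 0.02 there (-0.15 to 0.18). None of the 12 was at 2 times or more above other barcodes in either library. Tasp1, Zbtb1, Cdk13 and Cnot4 stayed past 1.5-fold in every alternative setting.

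Of 336 genes in the lists below, 118 were measured, and 59 of these were higher and 59 lower under sunitinib, with a median log2 ratio of 0.00 against 0.02 over all measured genes. P4ha1 was the 1 gene past 1.5-fold upwards, where 2.23% of all measured genes were, and Col5a3, Skil, Irs2 and Tbx20 were the 4 past it downwards, where 1.21% were. Sums over a list take in every gene whatever its count, a choice made after seeing that the filter left 2 lists with no gene. Over measured genes alone the sums of the other 16 lists lay between -0.09 and 0.26, and no interval left out 0.

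Among receptors, the 8 kinases that sunitinib inhibits besides PDGFRA held 201 fragments under sunitinib and 202 under vehicle (-0.14, -0.43 to 0.15), and none passed the filter. Pdgfrb, of the other receptor for platelet-derived growth factors, had 47 under sunitinib and 51 under vehicle (-0.25, -0.85 to 0.35). Ret, a neurotrophic factor receptor gene, had 36 under sunitinib and 29 under vehicle (0.18). Neither stood apart between the libraries. Of the vascular endothelial growth factor receptors, Kdr had 31 under sunitinib and 27 under vehicle, Flt1 41 under sunitinib and 52 under vehicle, and Flt4 13 under sunitinib and 12 under vehicle. All 3 lay below other barcodes in both libraries, at 0.30 to 0.44 times their level. Kit had 19 under sunitinib and 21 under vehicle, Flt3 11 under sunitinib and 4 under vehicle, and Csf1r 3 under sunitinib and 6 under vehicle, too few to read a ratio. Piezo1, the target of Yoda1, had 71 under sunitinib and 69 under vehicle (-0.09, -0.59 to 0.41) in a window that overlaps Ctu2 and Gm20388. Piezo2, its relative in touch-sensing neurons, had 50 under sunitinib and 53 under vehicle (-0.21, -0.80 to 0.37). The intervals allow changes of either direction at each of these genes.

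Matrix genes, whose products make up most of what the cell type secretes, differed little as groups. The 20 other collagen genes held 1683 fragments under sunitinib and 1577 under vehicle (-0.04, -0.14 to 0.06), with 8 higher and 12 lower. Col4a1 and Col4a2 encode basement membrane collagens and have overlapping windows. Col4a1 had 210 fragments under sunitinib and 236 under vehicle (-0.30, -0.57 to -0.02), and Col4a2 had 226 under sunitinib and 235 under vehicle (-0.19). Col15a1, of a collagen next to basement membranes, had 173 under sunitinib and 149 under vehicle (0.08). The 22 matrix glycoprotein and proteoglycan genes stood at -0.02 (-0.15 to 0.11). Among them Fbn1, which encodes fibrillin-1, had 206 under sunitinib and 208 under vehicle (-0.14), and Nid1, a basement membrane linker, had 105 under sunitinib and 77 under vehicle (0.31). The 21 genes of crosslinking and turnover stood at -0.06 (-0.19 to 0.07), with members on both sides. P4ha1, a collagen prolyl hydroxylase, had 73 under sunitinib and 44 under vehicle (0.59, 0.04 to 1.17). Timp3, a protease inhibitor whose window overlaps Syn3, had 79 under sunitinib and 99 under vehicle (-0.45, -0.90 to -0.01). Adamts2, the procollagen peptidase, had 205 under sunitinib and 208 under vehicle (-0.15).

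The 20 fibroblast identity genes held 1403 fragments under sunitinib and 1174 under vehicle (0.13, 0.01 to 0.24), 13 higher and 7 lower. Over its 8 measured genes the sum was 0.13 with an interval that held 0 (-0.01 to 0.26). Lama2, a laminin chain, had 276 under sunitinib and 227 under vehicle (0.15, -0.11 to 0.41). Ebf2, a mesenchymal transcription factor gene, had 195 under sunitinib and 153 under vehicle (0.22). The best covered members thus stood close to the sum, and no measured member was past 1.5-fold. The lowest ratio, -1.19, was that of the cadherin gene Cdh11, with 18 fragments under sunitinib and 38 under vehicle. The highest, 0.72, was that of the gelatinase gene Mmp2, with 51 under sunitinib and 28 under vehicle, and both genes were too thinly covered to pass the filter. In members with exactly 4 marker fragments the order was the other one, with 1433 CPM under sunitinib and 1818 CPM under vehicle. The 24 fibroblast transcription factor genes, some of them in other lists too, stood at 0.04 (-0.04 to 0.11). Nfia, a nuclear factor I gene, had 405 under sunitinib and 331 under vehicle (0.16). Tbx20, a T-box factor of the developing heart, had 49 under sunitinib and 68 under vehicle (-0.60, -1.16 to -0.05).

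Genes of activation and of TGF-beta signalling gave no shared direction. The 20 activation genes held 492 fragments under sunitinib and 420 under vehicle (0.10, -0.09 to 0.29), 13 higher and 7 lower. Only Runx1, a transcription factor gene, with 93 under sunitinib and 68 under vehicle, and Ltbp2, a microfibril gene, with 83 under sunitinib and 66 under vehicle, were measured. Genes that mark the myofibroblast were thinly covered. Acta2, smooth muscle actin, had 9 under sunitinib and 16 under vehicle, and Postn, periostin, had 10 under sunitinib and 15 under vehicle. The 23 TGF-beta pathway genes held 1789 under sunitinib and 1619 under vehicle (0.01, -0.08 to 0.11). The coreceptor gene Tgfbr3 had 234 under sunitinib and 179 under vehicle (0.26, -0.03 to 0.55). Acvr1, of a type I receptor, had 91 under sunitinib and 57 under vehicle (0.54, 0.05 to 1.05) in a window that overlaps Upp2 and Gm17409. The mediator gene Smad3 had 208 under sunitinib and 179 under vehicle (0.09). Others of these roles lay at or below 0, as the type II receptor gene Tgfbr2 with 88 under sunitinib and 81 under vehicle (-0.01), and the mediator gene Smad2 with 39 under sunitinib and 45 under vehicle (-0.33). Of the repressors of the pathway, Ski had 114 under sunitinib and 134 under vehicle (-0.36, -0.74 to 0.01), its relative Skil lay past 1.5-fold as given above, and the inhibitory SMAD gene Smad7 had 65 under sunitinib and 72 under vehicle (-0.28).

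**Figure D5:**
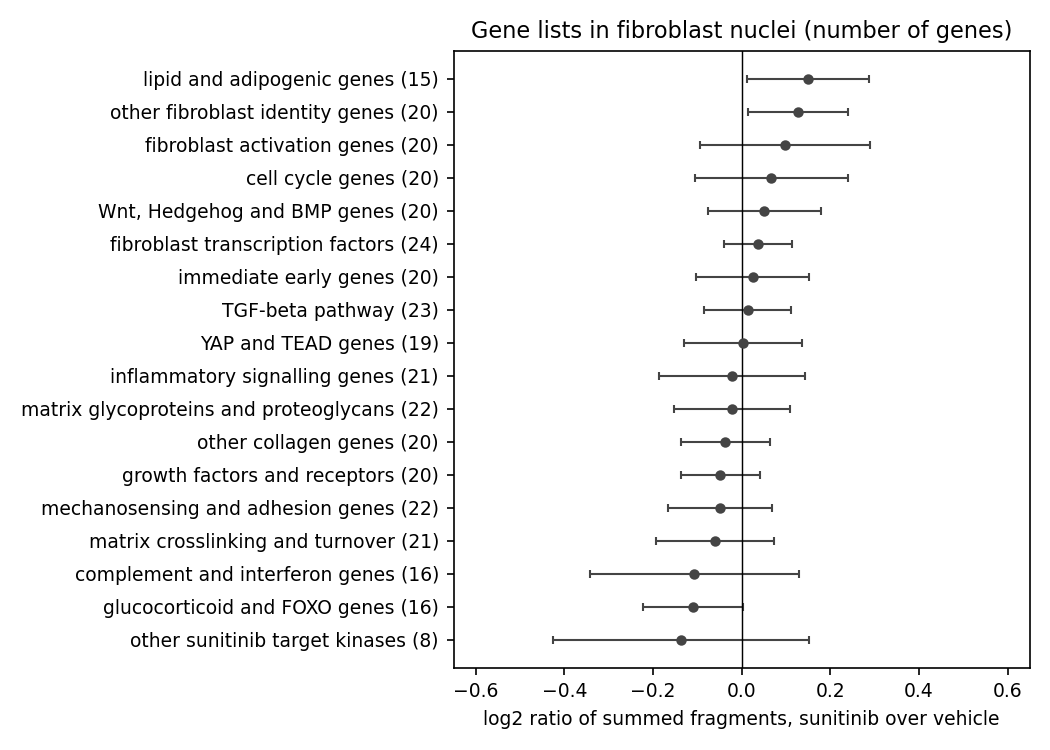
Log2 ratio of sunitinib over vehicle for the summed fragments of each gene list in fibroblast nuclei, with the number of genes in parentheses; bars are 95% intervals for counting error. The sums lie between -0.14 (target kinases) and 0.15 (lipid and adipogenic genes), and 2 intervals, both above 0, leave out 0. Over measured genes alone no interval did.

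Mechanical and growth signalling lists also lay near 0. The 22 mechanosensing and adhesion genes stood at -0.05 (-0.17 to 0.07). Their measured members turned to 0.25 within 1 kb of start sites and to 0.16 under a stricter marker rule, against -0.02. Mrtfa, a cofactor of actin-regulated transcription, had 136 fragments under sunitinib and 124 under vehicle (0.00), and Ptk2, focal adhesion kinase, had 122 under sunitinib and 107 under vehicle (0.06). The 19 YAP and TEAD genes stood at 0.00 (-0.13 to 0.14). Tead1, the DNA-binding partner of YAP, had 132 under sunitinib and 152 under vehicle (-0.33, -0.68 to 0.01), and Wwtr1, which encodes TAZ, had 127 under sunitinib and 116 under vehicle (0.00). The 20 growth factor and receptor genes stood at -0.05 (-0.14 to 0.04), and at -0.31 over the measured ones within 1 kb of start sites. More of their fragments came from the window of Fgfr2 than from all others, with 1123 under sunitinib and 1061 under vehicle. That window runs across many neighbouring genes and is not a value of Fgfr2 alone. Igf1r, the receptor upstream of IRS2, had 220 under sunitinib and 215 under vehicle (-0.10, -0.37 to 0.18). Egfr had 178 under sunitinib and 146 under vehicle (0.15). The 20 Wnt, Hedgehog and BMP genes stood at 0.05 (-0.08 to 0.18). The Wnt effector gene Tcf7l2 had 178 under sunitinib and 119 under vehicle (0.45, 0.11 to 0.80), and the Hedgehog effector gene Gli2 had 201 under sunitinib and 154 under vehicle (0.25).

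The 16 genes of glucocorticoid and FOXO regulation, to which Irs2 belongs, held 1286 fragments under sunitinib and 1268 under vehicle (-0.11, -0.22 to 0.00), 7 higher and 9 lower. Zbtb16, a glucocorticoid-induced zinc finger gene, had 279 under sunitinib and 317 under vehicle (-0.31, -0.55 to -0.08). Fkbp5, a co-chaperone of the glucocorticoid receptor, had 138 under sunitinib and 154 under vehicle (-0.29, -0.63 to 0.05). The forkhead gene Foxo3 had 173 under sunitinib and 115 under vehicle (0.46, 0.11 to 0.81), and its relative Foxo1 had 84 under sunitinib and 62 under vehicle (0.30). The list thus held genes on both sides, and no other measured member differed by as much as Irs2. The 15 lipid and adipogenic genes held 965 under sunitinib and 795 under vehicle (0.15, 0.01 to 0.29), 12 higher and 3 lower. Over its 3 measured genes the sum was 0.07 with an interval that held 0 (-0.10 to 0.25). Ebf1, an early adipogenic factor gene, had 279 under sunitinib and 235 under vehicle (0.12). Abca1, a cholesterol exporter gene, had 137 under sunitinib and 108 under vehicle (0.21). Zfp423, a preadipocyte factor gene, had 154 under sunitinib and 152 under vehicle (-0.11), and no measured member of the list was past 1.5-fold. Pparg, the master regulator of fat cell formation, had 56 under sunitinib and 31 under vehicle (0.71, 0.06 to 1.41) but was too thinly covered to pass the filter. Immediate early genes stood at 0.02 (-0.10 to 0.15), inflammatory signalling genes at -0.02 (-0.19 to 0.14), complement and interferon genes at -0.11 (-0.34 to 0.13) and cell cycle genes at 0.07 (-0.11 to 0.24).

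Distal elements were read in windows of 500 bp more than 2 kb from any start of a protein-coding gene, with at least 30 fragment ends in members. Of 1172 such windows outside the marker genes, 355 had at least 4 times the level of other barcodes in both libraries. Summed, these fibroblast windows held 6710 ends under sunitinib and 6230 under vehicle (-0.02, -0.07 to 0.03), with 179 higher and 176 lower. Past 1.5-fold lay 16.3% of them upwards, beside 20.7% of all measured windows, and 18.6% downwards, beside 17% of all measured windows. All measured windows include the fibroblast windows. The other 817 stood at 22.6% upwards and 16.3% downwards. Of the fibroblast windows 42.8% lay in gene bodies, against 34.6% of all measured windows. The limit of 4 times in both libraries removes windows open in 1 library alone. The sum, the split near 0 and the shares past 1.5-fold are thus partly set by the choice of windows. Both ends of a fragment were counted, and the intervals treat ends as independent. Window intervals are therefore too narrow even for counting error.

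By the lower of its folds in both libraries, the most selective window, in the body of Tbc1d8 (chr1:39387501-39388000 in mm10), had 14 ends under sunitinib and 17 under vehicle. It stood at 27.3 times other barcodes under sunitinib and 32.8 times under vehicle. The next, 98.6 kb from the start of Gas1 (chr13:60078501-60079000), had 11 ends under sunitinib and 22 under vehicle. By nearest start, Rnd3, of a small GTPase, had 4 fibroblast windows, with 82 ends under sunitinib and 88 under vehicle. Errfi1, of an inhibitor of the EGF receptor, had 3, with 49 ends under sunitinib and 69 under vehicle. Tbx20 also had 3, with 50 ends under sunitinib and 47 under vehicle, about equal in both libraries, unlike the gene body. The nearest start is a matter of position and does not say which gene a window controls.

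Some windows differed more, and they were chosen after their values had been seen. A window inside Loxl1 17.4 kb from its start (chr9:58295501-58296000) had 48 ends in 17 sunitinib nuclei and 6 ends in 5 vehicle nuclei. With coinciding ends of a nucleus counted once, 32 were left under sunitinib and 6 under vehicle. Other barcodes had 21 ends there under sunitinib and 17 under vehicle, and a second Loxl1 window nearer the start (chr9:58308501-58309000) had 18 ends in members of each library. Since Loxl1 fragments helped to choose the members, these values are a description. Window intervals are too narrow, as described above, and the next counts depend on them. Past 1.5-fold with an interval that left out 0, also with coinciding ends counted once, lay 9 of 342 fibroblast windows higher and 16 lower, outside the markers and chromosome 18. These were 2.63% higher and 4.68% lower, beside 6.48% higher and 5.94% lower of the 1127 measured windows, which include the fibroblast windows. The limit of 4 times in both libraries partly sets the fibroblast shares in advance, so nothing is concluded from the comparison. A higher fibroblast window in Astn2 (chr4:65548501-65549000) had 42 ends in 19 sunitinib nuclei and 13 in 7 vehicle nuclei. One in Pcsk6, of a proprotein convertase (chr7:65914501-65915000), had 25 in 15 sunitinib nuclei and 7 in 6 vehicle nuclei. One 4.05 kb from the acute-phase gene Saa3 (chr7:46719501-46720000) had 28 in 18 sunitinib nuclei and 10 in 6 vehicle nuclei. These 3 were read in more sunitinib than vehicle nuclei. A lower one in Ptgis, the prostacyclin synthase gene (chr2:167235501-167236000), had 13 ends in 6 sunitinib nuclei and 33 in 18 vehicle nuclei. One in Gli2 (chr1:118982001-118982500) had 8 in 6 sunitinib nuclei and 22 in 13 vehicle nuclei. One in Col15a1 (chr4:47294001-47294500) had 11 in 8 sunitinib nuclei and 25 in 14 vehicle nuclei. The windows in Gli2 and Col15a1 went against the ratios of the whole genes, 0.25 and 0.08.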

How the data were processed

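The deposited values were ATAC fragments with a count of read pairs per barcode and position; per the file headers the authors made them with cellranger-arc 2.0.0 (vehicle, sunitinib) or 2.0.2 (sunitinib plus Yoda1) on mm10, all barcodes kept. Each fragment was counted once here, whatever its read pairs. The submitters' processing notes also name Cell Ranger and Signac. Libraries held 23653823 (sunitinib) and 18704581 (vehicle) fragments.

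Genes were the 21728 protein-coding genes of GENCODE M21. Python 3.11.15, numpy 2.4.6, scipy 1.17.1 and pandas 2.3.3 were used. Ratios have conditional exact (binomial) intervals, levels Poisson and shares Clopper-Pearson intervals. The filter kept genes with 100 or more member fragments in total and 30 expected per library, and a call was a 1.5-fold ratio. The rule on another class was the same (4 fragments, 3 times the vehicle share) on that class's markers. No genome was used, so windows are given without sequence. Named were all markers, the 12 highest and 12 lowest genes as described, the leading and called genes of each list, and the 12 genes leading over other barcodes. Some genes that this rule names are not reported here. The intervals were tested only on gene counts simulated as independent, which the intervals themselves assume. The grouping of fragments within nuclei and the paired ends of windows were not simulated. Members and lists were chosen with earlier results of these data known.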

Additional observations from a re-analysis of the deposited data

How the results depend on the processing

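With 1 library per group no replicate could be left out. No paired analysis was possible because each group has 1 library. Counts of genes past 1.5-fold varied with the setting. Higher under sunitinib and lower were 48 and 26 of 2148, 380 and 253 of 6591 with at least 50 fragments, 6 and 1 of 599 with at least 200, and 4 and 7 of 268 with fragments shorter than a nucleosome's DNA. They were 1 and 1 of 92 under a stricter rule (6 marker fragments, 5 times the share) and 0 and 0 of 21 within 1 kb of start sites. With ratios centred on the median gene they were 37 and 33 of 2148. Without the 5% of members with most fragments 29 were higher, and with equal weight per nucleus 44 were lower. The identity list (8 measured genes) stood at 0.28 with short fragments, against 0.13. Of 223 list sums under alternatives 12 moved out of their interval. The 223 include sums over every list gene whatever its count. They also include a fragment length setting that kept every member and so could not move a sum. Under the stricter rule mechanosensing genes stood at 0.16, immediate early genes at 0.41, cell cycle genes at 0.47, collagens at 0.07 and glucocorticoid and FOXO genes at -0.22. Within 1 kb of start sites mechanosensing genes stood at 0.25, growth factors at -0.31 and inflammatory genes at 0.23. Fibroblast windows stood at 0.034 with members of at least 3000 fragments, against -0.02, both near 0. The share was 4.22% under sunitinib and 6.53% under vehicle as reported, 0.544% under sunitinib and 0.779% under vehicle when thinned, 7.89% under sunitinib and 12.3% under vehicle from 3000 fragments, 1.09% under sunitinib and 1.74% under vehicle with the stricter rule, and 3.40% under sunitinib and 5.45% under vehicle without members of another class. Pdxdc1 changed sign with short fragments (0.037). Named genes were chosen with the same direction within 1 kb of start sites, so under that alternative no sign could change. Of 240 values of named genes under the 10 alternatives that could move a ratio, 224 stayed within their interval and 15 left it without a change of sign, and 7 of 24 named genes stayed past 1.5-fold in all of them. The cause was not tested. Counting coinciding ends of a nucleus once, and summing every list gene whatever its count, were chosen after seeing the data.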
